A study of Caenorhabditis elegans with 2 samples.

Results

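The heterochronic pathway is the set of genes that tells larval cells of the nematode Caenorhabditis elegans which stage-specific division pattern to follow. Binding of the nuclear hormone receptor NHR-47 was examined here at 10 genes, out of 19973 protein-coding genes in the annotation: lin-14, lin-28, lin-41, hbl-1, lin-46, lin-42 and lin-29 of the timing pathway, puf-9, and the Argonaute genes alg-1 and alg-2. They were chosen by name, with signal values of these same peak lists already known, so the values below are a description and no test was made over the genes. Each gene's window ran from 5 kb upstream of its 5′ end to its 3′ end, and all summits in it were counted.

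As background, LIN-14, LIN-28 and HBL-1 act early and hold back later fates, and the microRNAs lin-4 and let-7 with its relatives lower them in turn as larvae grow. LIN-41 restrains LIN-29, the zinc finger factor that drives the change to the adult. LIN-46 acts downstream of LIN-28, LIN-42 is the worm's homolog of the clock protein Period, ALG-1 and ALG-2 carry microRNAs to their targets, and PUF-9, an RNA-binding protein of the Pumilio family, takes part in repression of hbl-1.

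The data come from chromatin immunoprecipitation and sequencing of whole hermaphrodite L1 larvae, 6 h past their release from a starved, bleach-synchronized state, in 2 biological replicates of 1 group. All worms were of strain OP481, unc-119(tm4063) III with the transgene wgIs481, whose NHR-47 product carries GFP-FLAG at its C terminus, and the labels describe the immunoprecipitation as made with an anti-GFP antibody, while their antibody field names nhr-47. No untagged strain or other stage was analysed here. The tagged protein comes from a transgene in 1 strain, and whole animals do not show in which cells a site was bound. The authors' thresholded list on the ce11 build held 5357 peaks, their pooled list and each replicate's list 30000 regions, and the lists give no read counts, so the depth is unknown. The pooled list is labelled as peaks and background, so a region in it below the threshold need not be a bound site. A peak's signal is the authors' own score, with a median of 156 and a lowest value of 77.0 in the thresholded list, and rank 1 is the highest signal.

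Of the 10 genes, 9 had at least 1 thresholded summit in their window, 19 summits in all, and lin-29 had none. Of all protein-coding genes, 32.9% had such a summit. The windows of the 10 genes are long, with a median of 11.9 kb against 7.03 kb, and among genes with a window of 10 kb or more the share was 47.6%. Per length, the 10 windows held 0.132 thresholded summits per kb, against 0.0583 in the windows of all protein-coding genes. This density counts both summits of closely spaced pairs, which come from overlapping regions. Of the 19 summits, 6 had another within 210 bp, against 6.2% of all thresholded summits. Any region of the pooled list was present at the same 9 genes, against 56.0% of protein-coding genes. Few of the summits lay close to the annotated gene start: the promoter, taken as the 500 bp before the 5′ end and the 200 bp after it, held a summit only at puf-9 and lin-14, against 12.8% of all protein-coding genes. With the starts of all annotated transcripts, alg-1 and lin-28 were added.

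**Figure D1:**
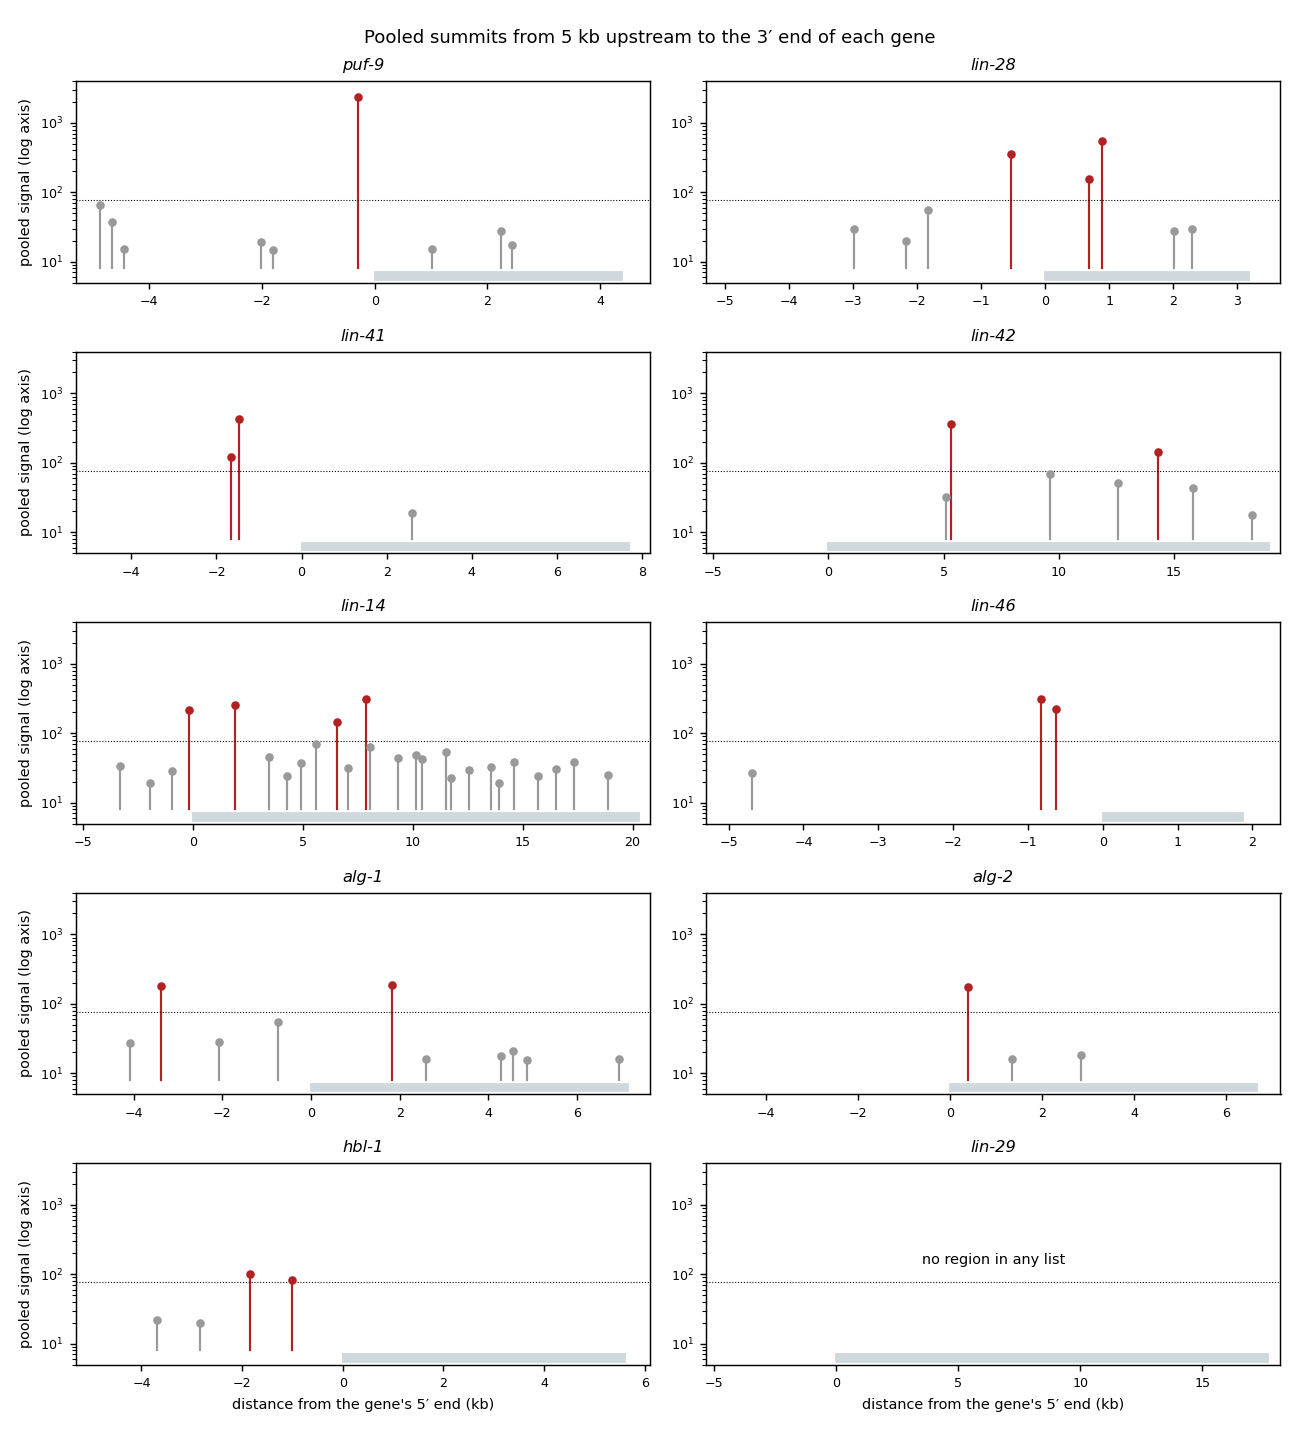
Signal in the pooled list (log axis) against distance from the gene's 5′ end in kb, 1 panel per gene, with red for thresholded summits, grey for other pooled summits, a pale bar for the gene and a dotted line at the lowest thresholded signal of 77.0. The single red summit at puf-9 reaches 2362, lin-14 has 26 pooled summits spread across its window, upstream part included, and lin-29 has none.

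The summit at puf-9 stood far above those of the other genes. Its signal was 1059 in replicate 1 and 1300 in replicate 2, where it ranked 18 and 23, and 2362 in the pooled list, where it ranked 22. After division by each replicate's median over peaks found in both, the relative signal was 15.9 and 14.1, or 15.0 ± 1.25 (SD, n = 2). The summit fell on the same base in both replicates, 287 bp before the start of the gene (peak at X:5840953-5841554, ce11). It lies inside 2 overlapping short noncoding genes, W06B11.7 on the opposite strand and W06B11.9 on the strand of puf-9, and the nearest protein-coding 5′ end is that of puf-9 itself. The pooled signal was 4.3 times that of the next gene, lin-28. The rest of the window was weak, with 8 pooled regions of signal 14.6 to 66.6, the highest of them 4869 bp upstream at rank 6189.

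The summit of puf-9 with 100 bases on each side is shown because this peak is the strongest at these genes. They cover chrX:5841205-5841405 of WBcel235 (ce11) on the plus strand, which is the strand of the gene. Capitals mark every match, on either strand, to the motifs listed with the other sequences further on.
puf-9: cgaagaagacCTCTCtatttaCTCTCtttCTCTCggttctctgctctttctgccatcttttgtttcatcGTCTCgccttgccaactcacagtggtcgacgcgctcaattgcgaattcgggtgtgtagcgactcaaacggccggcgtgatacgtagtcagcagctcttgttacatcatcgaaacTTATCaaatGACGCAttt
The run of 3 CTCTC matches, GAGAG on the other strand, lies on the 5′ side, more than 50 bases from the summit, as do the matches to GATAA (as TTATC) and to GACGCA on the 3′ side. The 50 bases on each side of the summit hold only a match to GTCTC, with 54.5% G or C.

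The promoter peaks whose relative signals in the 2 replicates lay nearest to those of puf-9, as distance on the log2 scale over 2 replicates, were at tos-1 (15.3 ± 0.622, distance 0.0763), Y22D7AL.10 (15.3 ± 0.549, distance 0.0797), cox-5A (14.9 ± 0.257, distance 0.0954) and ints-4 (14.3 ± 0.715, distance 0.103; SD, n = 2 for each). Of these, cox-5A encodes a subunit of cytochrome c oxidase and ints-4 encodes an Integrator subunit.

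On X, hbl-1 lies just upstream of puf-9, its 3′ end 13.8 kb from the puf-9 5′ end with 3 protein-coding genes between them, and it was the weakest of the 9 genes. HBL-1 is a zinc finger factor of early stages. Its summit 1836 bp upstream (X:5820096-5820515) had a signal of 49.2 in replicate 1, 56.7 in replicate 2 and 102 in the pooled list, rank 4071. The summit 1011 bp upstream (X:5820921-5821340) had 29.8, 56.9 and 83.2, rank 4949. The pooled signal at puf-9 was 23.3 times the higher of these values. Both summits were below the median peak, at a relative signal of 0.676 ± 0.0868 and 0.532 ± 0.121 (SD, n = 2), and their order differed between the replicates. No pooled summit lay inside the gene, and between it and the puf-9 window there were 2, of signal 33.5 or less.

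At lin-14, a nuclear factor of the first larval stage and the longest window of the set (25.3 kb), 4 thresholded summits were found. Relative to the median peak, the summit in the promoter, 183 bp upstream (X:11465275-11465484), had 1.18 in replicate 1 and 1.54 in replicate 2. The summit in the first intron, 1931 bp downstream (X:11467290-11467607), had 1.43 and 1.75. In intron 3, the summit 6562 bp downstream had 1.02 and 0.849, and that 7864 bp downstream (X:11473176-11473632) had 2.18 and 1.80. The strongest was thus deep in the gene, at a pooled signal of 315 and rank 1192, against 219 and rank 1862 for the promoter summit. In replicate 1 and in replicate 2 the intron 3 summit was above the promoter summit, by a wider margin in replicate 1. The order in replicate 1 depends on which region is matched to the intron 3 peak. Another replicate 1 region overlapping that peak had a signal of 78.0, against 78.7 for the promoter summit. When 50% of the peak had to be covered, the mean relative signal at intron 3 was 1.52.

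Weaker regions of the pooled list were spread across the rest of the lin-14 window, upstream part included. The pooled list held 26 summits in its window, 1.03 per kb against 0.288 over all protein-coding windows, and 22 of them were below the threshold with signals of 19.2 to 70.5. The replicate lists held 24 and 28. Of the 198 protein-coding genes with a window of 25 kb or more, 17.2% had at least as many pooled summits, and their median was 9. The signal of 70.5, 5614 bp downstream of the 5′ end, was the highest of any region at these genes that missed the list, at rank 5872. The 83.2 of hbl-1 was the lowest inside it.

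Of the remaining windows on X, alg-1 held 2 summits of nearly the same height. That 3388 bp upstream (X:13945620-13945789) had a relative signal of 1.08 in replicate 1 and 1.19 in replicate 2, and lay inside the short noncoding gene K02B9.6. That 1820 bp downstream (X:13950720-13951139) had 1.09 and 1.17. The latter lay 332 bp upstream of the 5′ end of another alg-1 transcript and in the 5′ UTR of a further one. Pooled signals were 183 and 184, at ranks 2280 and 2268, so the pair did not differ beyond the replicates' spread. The other Argonaute gene, alg-2 on II, had 1 summit in its first intron, 386 bp downstream (II:873494-873667), with 1.12 in replicate 1 and 1.06 in replicate 2, a pooled signal of 173 and rank 2438. The relative signals of alg-1 and alg-2 overlapped between replicates.

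At lin-42, the Period homolog, 2 intronic summits passed the threshold. The summit 5312 bp downstream of the 5′ end (II:1246882-1247228) had a relative signal of 2.28 in replicate 1 and 2.31 in replicate 2, a pooled signal of 366 and rank 978. It lies in the first intron of 2 transcripts and inside the noncoding gene F47F6.15. The summit 14297 bp downstream (II:1237992-1238108), 1093 bp upstream of the start of a shorter lin-42 transcript, had 1.10 and 0.715, a pooled signal of 142 and rank 2940. Another 5 pooled regions had signals of 17.9 to 68.9, and no pooled region lay upstream of the gene.

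Both summits of lin-46, which encodes a gephyrin-like protein, lie nearer to another gene. They were 824 bp (V:12967886-12968146) and 622 bp (V:12968023-12968442) upstream of lin-46, and 49 and 251 bp upstream of R186.8, which is transcribed away from lin-46. Relative signals were 2.00 in replicate 1 and 1.95 in replicate 2 for the first, and 1.53 and 1.33 for the nearer of the pair. Pooled signals were 315 and 223, at ranks 1193 and 1823. Position alone cannot tell which of the genes the peak belongs to. These were the only 2 of the 19 summits whose nearest protein-coding 5′ end was not that of the listed gene.

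The summit with 50 bases on each side is shown for some genes, on the strand of the gene, because these windows hold a gene's strongest summit by mean relative signal or a match to AGGTCA, the core hexamer of many nuclear receptor elements. Capitals mark matches on either strand to the 7 motifs searched, which are spelled out in the next paragraph. The summit is base 51 of each line. In order they cover chrX:11473374-11473474, chrX:5821081-5821181, chrII:1246997-1247097 on the minus strand, chrV:12967981-12968081, chrX:13945672-13945772 and chrII:873548-873648.
lin-14 (+7864): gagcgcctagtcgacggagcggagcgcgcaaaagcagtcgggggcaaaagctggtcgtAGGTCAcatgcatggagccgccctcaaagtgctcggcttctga
hbl-1 (-1011): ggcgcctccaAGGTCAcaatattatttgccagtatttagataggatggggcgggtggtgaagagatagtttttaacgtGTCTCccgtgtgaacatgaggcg
lin-42 (+5312): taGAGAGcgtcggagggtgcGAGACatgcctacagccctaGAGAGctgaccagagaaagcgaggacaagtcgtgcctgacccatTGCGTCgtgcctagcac
lin-46 (-824): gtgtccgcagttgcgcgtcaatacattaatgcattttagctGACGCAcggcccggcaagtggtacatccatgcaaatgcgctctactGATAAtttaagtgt
alg-1 (-3388): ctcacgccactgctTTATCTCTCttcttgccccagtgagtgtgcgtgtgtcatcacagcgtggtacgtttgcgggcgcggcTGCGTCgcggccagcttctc
alg-2 (+386): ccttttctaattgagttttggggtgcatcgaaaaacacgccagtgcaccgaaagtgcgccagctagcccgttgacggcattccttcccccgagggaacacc

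AGGTCA occurred in 2 of the 19 windows, those of lin-14 and hbl-1 shown, and in 2.67% of all thresholded windows of this length. In lin-14 it begins 8 bases after the summit, and in hbl-1 40 bases before it. GACGCA occurred in 4 of 19, at lin-42, lin-46 and both alg-1 summits, against 14.6% of all windows. GAGAG occurred in 7 of 19, against 40.5% of all windows. GTCTC occurred in 6, against 32.8%, and GATAA in 3, against 16.5%. TTTCGCGC, present in 1.49% of all windows, and the palindrome CACGTG, present in 5.39%, occurred in none of the 19. At alg-1 (-3388) a GATAA match and a GAGAG match overlap by 1 base, and GACGCA and GTCTC matches overlap at alg-1 (+1820). No motif was present at all 9 genes, and alg-2 held none of the 7. The share of G or C ranged from 31.7 to 75.2%, with a median of 49.5% against 45.5% over all thresholded windows.

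The RNA-binding protein gene lin-28 had the highest signal after puf-9. Its product blocks let-7 processing. The summit in its first intron, 877 bp downstream of the 5′ end and 7 bp upstream of the start of the shorter transcript (from 8409738 to 8410145 on chromosome I), had a relative signal of 3.74 in replicate 1 and 3.32 in replicate 2, a pooled signal of 549 and rank 538. A summit 544 bp upstream of the longer transcript (from 8411223 to 8411508) had 2.32 and 2.25, a pooled signal of 361 and rank 1004. Each transcript start of lin-28 thus had a summit upstream of it, and the stronger was at the shorter form. A further summit 677 bp downstream, 200 bp from the first, had a relative signal of 1.13 in replicate 1 and 0.305 in replicate 2. It was the only one of the 19 whose replicates differed by over 2-fold.

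The TRIM-NHL gene lin-41, a target of let-7, came next. Its summit 1460 bp upstream (from 9343775 to 9344111 on chromosome I) had 2.71 in replicate 1 and 2.64 in replicate 2, a pooled signal of 422 and rank 810. The replicate summits were 4 bp apart. A weaker summit 201 bp further out had 0.436 and 0.650, a pooled signal of 120 and rank 3491. The gene body held 1 pooled region, of signal 18.9. Such closely spaced pairs occurred at lin-28, lin-41 and lin-46, 200 to 202 bp apart, and made up 6 of the 19 summits, while 6.2% of all thresholded summits had another within 210 bp. Paired summits come from overlapping regions, so they are not independent, and the spacing was looked at after the positions were seen.

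No summit of any list fell in the 22.7 kb window of lin-29, the last factor of the pathway. The nearest pooled summits were 19017 bp beyond the upstream end of the window, at a signal of 285, and 27729 bp beyond the 3′ end, at 19.3. The stretch between them was 69.4 kb long, against a median of 1.1 kb between neighbouring pooled summits, and 0.337% of the 29994 such stretches were at least as long. In the replicate lists the empty stretch was 63.7 and 69.2 kb. Of 272 protein-coding genes with a window at least as long, 36 (13.2%) also lacked any pooled summit and 118 (43.4%) lacked a thresholded one. The lists hold no read coverage, so how well this stretch was covered was not tested.

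By their strongest summit, the genes fell in the order puf-9, lin-28, lin-41, lin-42, lin-14, lin-46, alg-1, alg-2 and hbl-1, with mean relative signals of 15.0, 3.53, 2.67, 2.30, 1.99, 1.98, 1.14, 1.09 and 0.676. The replicate values of neighbours in this order overlapped for lin-14 with lin-46 and for alg-1 with alg-2, and did not for the other neighbours. With 2 replicates, no test of these steps was made. Over the 19 summits the median relative signal was 1.36, against 0.991 over all 5312 thresholded peaks found in both replicates. Of the 19, 13 had a signal above the list's median, and 18 lay within 2-fold between replicates, against 94.9% of all peaks.

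**Figure D2:**
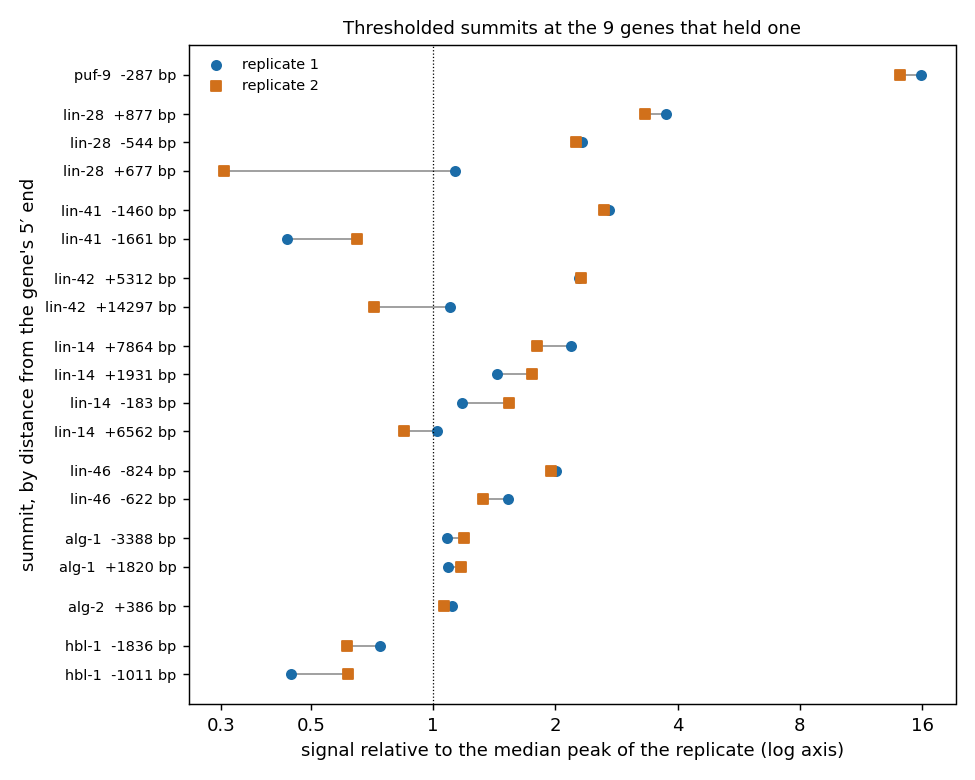
Relative signal of each of the 19 thresholded summits (log axis; 1 is the median peak of the replicate), with circles for replicate 1 and squares for replicate 2 and labels giving the distance from the gene's 5′ end. The puf-9 summit sits at 15.9 and 14.1, all others at 3.74 or lower, and the lin-28 summit at +677 bp has the widest gap.

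**Figure D3:**
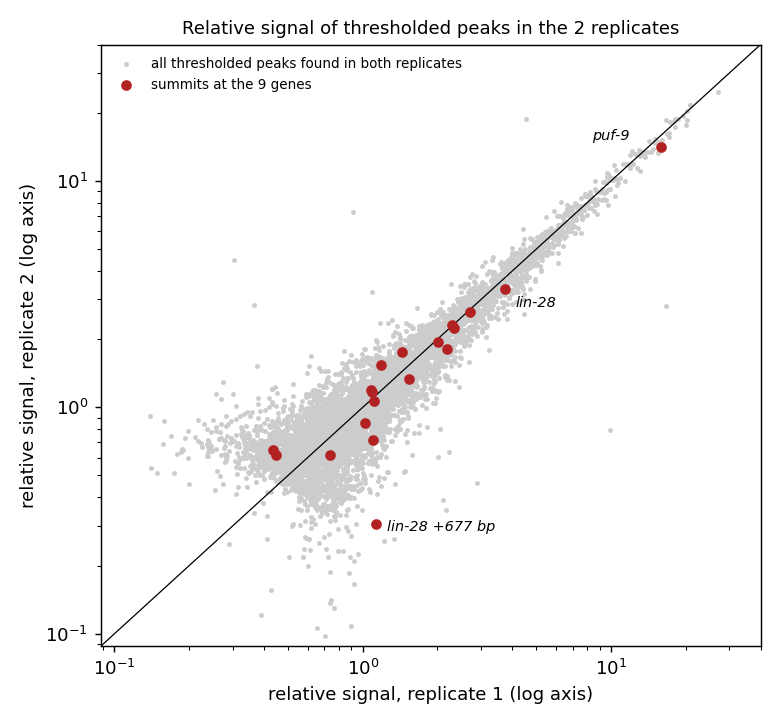
Relative signal in replicate 1 against replicate 2 (log axes) for all 5312 thresholded peaks found in both (grey) and the 19 summits (red), with a line of equality. The red points lie within the grey cloud along the line, and the lin-28 summit at +677 bp (1.13 and 0.305) lies farthest below it.

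Some of the summits lay close to short noncoding genes, which the choice of genes did not use. Of the 19, 10 were upstream of their gene, 8 in introns and 1 in an exon. A gene annotated as ncRNA lay within 250 bp of 8 of them (42.1%), at 6 of the 9 genes, and 4 summits were inside such a gene. Over all thresholded summits the share was 15.3%, and over the pooled summits below the threshold 7.61%. The 8 were at puf-9, at 3 of the 4 lin-14 summits, and at 1 summit each of hbl-1, lin-42, alg-1 and alg-2. At lin-28, lin-41 and lin-46 no ncRNA gene lay within 5 kb of a summit. This relation was looked for after the positions were seen.

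Other genes of the same processes were listed to set these values in context. Of 12 further protein-coding heterochronic genes, 10 had a thresholded summit in the same window, against 32.9% of all protein-coding genes. Of the 12, 11 had a window of 10 kb or more, for which the share over all such genes was 47.6%. At 7 of the 10 the strongest summit was nearest to that gene's own 5′ end. The highest signal was in the window of nhl-2, a cofactor of the microRNA complex, at 15.2 ± 0.233 (SD, n = 2) and rank 19, but this peak is nearest to tag-340. At lin-66, which lowers lin-28, the stronger of 2 promoter summits had 3.35 ± 0.0924. At daf-12, the steroid receptor that links timing to dauer entry, the stronger of 2 summits, 1731 bp downstream, had 2.47 ± 0.0324. At kin-20, a casein kinase, the strongest of 3, 2307 bp downstream, had 2.02 ± 0.202. Next came sea-2 (1.77 ± 0.846), nhr-23 (1.33 ± 0.0687, nearest to C01H6.3), lep-2 (1.14 ± 0.0638, nearest to egrh-2), apl-1 (0.988 ± 0.213), nhr-25 (0.830 ± 0.317) and blmp-1 (0.521 ± 0.100). The genes dre-1 and mab-10, whose product is a partner of LIN-29, had none, and mab-10 lacked any pooled region.

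The microRNA genes of the pathway each had 1 thresholded summit upstream, against 39.5% of the 261 annotated miRNA genes. At let-7 it lay 1852 bp upstream, with a relative signal of 2.85 in replicate 1 and 3.07 in replicate 2 and rank 671. That distance is from the 5′ end of the annotated let-7 gene (X:14743590-14745321). The other microRNA genes named here are annotated as much shorter, such as mir-84 (X:16022404-16022478), so the distances are not like measures. At mir-84 it lay 2316 bp upstream with 1.38 and 1.71. A single summit, 432 bp upstream of mir-241 and 2206 bp upstream of mir-48, was shared by both, with 0.452 and 0.816. At lin-4 it lay 414 bp upstream with 0.392 and 0.612, and ranked 4720. The values at lin-4, mir-48 and mir-241 were thus below the median peak. The nearest protein-coding 5′ ends to these summits were those of C05G5.2 for let-7, mboa-1 for mir-84, unc-39 for the shared summit and tsp-18 for lin-4. When each summit was given only to the nearest 5′ end, with those of the listed noncoding genes included, 3 noncoding genes had one. With the 5357 strongest regions of replicate 1 alone, 2 of the 6 noncoding genes listed had a summit, against 5 with replicate 2 alone. The sixth noncoding gene, lep-5, had none in the thresholded list.

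Among 16 other microRNA and Argonaute genes, 11 had a thresholded summit, against 32.9% of all protein-coding genes and 47.6% of those with a window of 10 kb or more, which 5 of the 16 had. At 4 of the 11, the strongest summit was nearest to the gene itself. These were vig-1 (6.61 ± 0.0353, SD, n = 2), the GW182 homologs ain-1 (4.85 ± 0.137) and ain-2 (1.03 ± 0.0688), and pash-1, the partner of Drosha (3.24 ± 0.0782). Strong summits in the windows of drsh-1 (5.86 ± 0.349), xrn-2 (5.18 ± 0.462), alg-5 (5.16 ± 0.529), ergo-1 (4.37 ± 0.263) and cgh-1 (3.31 ± 0.552) were nearest to cox-5B, Y48B6A.1, his-68, Y50D4C.5 and sap-140. At rde-1 the summit (0.667 ± 0.161) was nearest to trpp-6, and at tsn-1 the strongest, with 1.75 in replicate 1 and 1.44 in replicate 2, was nearest to unc-85. Both tsn-1 and xrn-2 also had a weaker thresholded summit in their own promoter window. The promoter window held a thresholded summit at 5 of the 16 genes, against 12.8% of all protein-coding genes. Dicer (dcr-1) and the Argonaute genes alg-3, alg-4, prg-1 and csr-1 lacked any pooled region. None of the 9 other PUF family genes, fbf-1 and fbf-2 among them, had a thresholded summit, against 32.9% of all protein-coding genes. By a rough rule such a count allows up to 3 genes, or 33.3%, counting error only. With 9 genes this limit is inexact, so it cannot decide whether the share differs from 32.9%, and that difference was not tested. A pooled region was present at 4 of the 9, against 56.0% of all protein-coding genes.

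**Figure D4:**
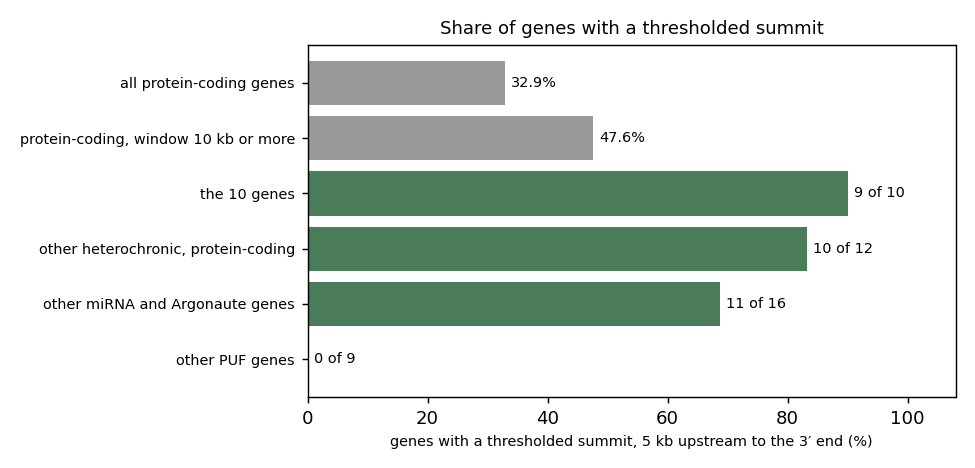
Percent of genes with a thresholded summit from 5 kb upstream to the 3′ end, with grey bars for all protein-coding genes (32.9%) and those with a window of 10 kb or more (47.6%) and green bars for the 10 genes and the other lists, labelled with their counts. The lists reach 9 of 10, 10 of 12 and 11 of 16, and the other PUF genes 0 of 9.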

How the data were processed

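Peak lists of 2 biological replicates of 1 group were used, on ce11. Per the submitters' file index, the authors derived regions from each replicate's alignments and from both together, with a further input file whose role is not stated, and thresholded the pooled list by the optimal irreproducible discovery rate rule. Which aligner and caller made them is not given in the sources used here. The deposited column 7 holds the caller's signal, whose median differs between the lists, and column 10 the summit offset. The ce10 lists were not used. Files gave no read counts, so no interval needing depth is given.

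Genes, transcripts and noncoding genes came from Ensembl release 115 (WBcel235), 5 microRNA genes were found through their RefSeq symbol and identical position, and sequences came from the RefSeq WBcel235 genome. No region passed a chromosome end. A replicate's value for a peak was the signal of its overlapping region (at least 1 bp) with the nearest summit, divided by that replicate's median over the 5312 peaks found in both, 66.8 and 92.2. Motifs were searched on both strands in the summit and 50 bp on each side. All thresholded summits at the genes, and every gene of the other lists with one, are named. The 4 genes most like puf-9 are those with the nearest log2 relative signals. The members, lists and motifs were chosen with earlier results of these data known. Counting and matching were tested on simulated data. Python 3.11.15, pandas 2.3.3 and numpy 2.4.6 were used.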

Additional observations from a re-analysis of the deposited data

How the results depend on the processing

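With 2 kb or 10 kb upstream, all pooled regions, or either replicate alone, 9 of the 10 genes had a summit, and with the stronger part of the list or only the nearest protein-coding 5′ end 8 did. In each of these settings lin-29 had none. Leaving out a replicate gave 18 to 20 summits at the 10 genes, 25 to 27 of the other listed genes (26 with both), a puf-9 signal of 14.1 to 15.9 and a median of the other genes' strongest summits of 1.88 to 2.10 (1.99 with both). The promoter window of the gene held 2 summits at 2 of the 10 genes, and at 9 of the other listed genes. Promoter windows of any transcript held 5 summits at 4 genes, and again 9 of the other genes. By construction these windows are narrower. Given only to the nearest 5′ end, 16 of the other genes kept a summit, and all pooled regions gave 73 summits at the 10 genes. Divided by the median of the whole replicate list, which holds many weak regions, the puf-9 signal was 69.0 and the median of the others 9.15. When a replicate region had to cover 50% of the peak, the median of the others was 1.77, and lin-14 was the only gene whose value fell. For single genes other than puf-9, 24 alternative values kept both replicates, and 16 of them moved by more than the SD of the replicates. Of these, 8 came with the scaling by the whole list and 8 with the matching settings, which also change the median used as divisor. With the highest overlapping region every gene's value was lower, as for lin-41 (2.67 to 2.56). With 50% cover every value but that of lin-14 was slightly higher (2.73 for lin-41). The lin-14 value fell from 1.99 to 1.52 when 50% of the peak had to be covered. With 2 replicates, leaving 1 out moves a mean by less than the SD by construction. Without read counts, depth limits every weak region to an unknown degree.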
